A study of Mus musculus with 28 samples.

Results

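The 38 genes described here are transcripts that type I interferon is known to induce, other than the Ifit family, measured in RNA precipitated together with the kinase PKR from mouse embryonic fibroblasts. They were taken from a list of symbols, each found in the gene name or by the Ensembl identifier of the deposited tables, and all 38 were present among 30210 features. The rule uses the symbols and no measured value, but the list was drawn up with earlier results of these data known. Averaged over both treatments and over 2 replicated datasets, 13 of the 31 that could be tested gave more counts with wild-type PKR than with the mutant, and 0 gave fewer. Of all 12683 features tested 12.4% gave more and 13.1% fewer. The differences lay mostly in one dataset: in dataset A, 28 of 29 tested genes lay above 0 in mock cells, whereas in dataset B 13 of 26 did.

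The cells were mouse embryonic fibroblasts (MEF) reconstituted with wild-type PKR (WT) or with PKR carrying a mutation in each double-stranded RNA-binding motif (RM), and each line was mock treated or given palmitic acid, a saturated fat component, at 0.1 mM. An immunoprecipitation of PKR was made from lysate, and its RNA was extracted with Trizol, fragmented and cloned with a small RNA kit. Datasets A and B each hold 3 libraries of WT mock, WT palmitate, RM mock and RM palmitate, which the labels call biological replicates, and dataset C holds 1 library of each. In dataset B the column names also say 2hr, which the labels do not explain. The labels do not say whether a line is a clone or a pool, how PKR was put back, or how long palmitate was given. There is no input RNA and no control precipitation here, so the amount of a transcript in the cell and the amount bound to PKR cannot be told apart, and neither can fewer cells of a type and less RNA per cell.

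Type I interferon binds a receptor whose kinases phosphorylate STAT2. STAT2 and IRF9 are subunits of the complex ISGF3, which enters the nucleus and binds the interferon-stimulated response element in the promoters of interferon-stimulated genes. The induced proteins sense foreign RNA, block viral entry, translation and budding, attach ISG15 or ubiquitin to other proteins and present antigen. PKR is itself induced by interferon, and on binding double-stranded RNA it phosphorylates the translation factor eIF2alpha.

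Promoters are shown because a shared element in them defines much of this gene group. Of the 38 genes, 29 have an entry in the RefSeq promoter table (build GRCm38.p6, another build than that of the counts), which holds 250 bases before and 50 after each start. The core letters of the response element, GAAA and GAAA with any 2 bases between on either strand, lay in 14 of these 29 genes (48.28%), against 3.993% of the 27025 genes in the table. The letters of the gamma-activated site, TTCNNNGAA, which reads the same on both strands, lay in 7 of the 29 (24.14%), against 9.554% of genes. Below are the 250 bases before the start of 5 genes that the results turn on, on the strand of the gene, with matches to the core of the response element in capitals. They are Bst2 (chr8:71537473-71537722, minus), Gbp2 (chr3:142620413-142620662, plus), Gbp3 (chr3:142559794-142560043, plus), Cxcl10 (chr5:92348890-92349139, minus) and Dtx3l (chr16:35939028-35939277, minus).
Bst2: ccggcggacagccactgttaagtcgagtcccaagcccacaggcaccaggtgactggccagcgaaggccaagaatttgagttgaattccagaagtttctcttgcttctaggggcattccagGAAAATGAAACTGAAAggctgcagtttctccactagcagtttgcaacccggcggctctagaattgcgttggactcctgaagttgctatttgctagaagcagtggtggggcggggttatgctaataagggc
Gbp2: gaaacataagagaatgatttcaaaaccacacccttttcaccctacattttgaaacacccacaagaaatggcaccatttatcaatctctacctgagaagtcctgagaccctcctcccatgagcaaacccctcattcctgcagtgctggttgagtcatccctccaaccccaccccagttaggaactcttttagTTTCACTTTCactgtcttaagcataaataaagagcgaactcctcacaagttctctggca
Gbp3: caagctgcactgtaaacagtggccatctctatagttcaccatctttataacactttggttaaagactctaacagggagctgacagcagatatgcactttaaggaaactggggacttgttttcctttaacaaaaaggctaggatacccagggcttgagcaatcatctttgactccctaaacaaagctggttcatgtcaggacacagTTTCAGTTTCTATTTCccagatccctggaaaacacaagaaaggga
Cxcl10: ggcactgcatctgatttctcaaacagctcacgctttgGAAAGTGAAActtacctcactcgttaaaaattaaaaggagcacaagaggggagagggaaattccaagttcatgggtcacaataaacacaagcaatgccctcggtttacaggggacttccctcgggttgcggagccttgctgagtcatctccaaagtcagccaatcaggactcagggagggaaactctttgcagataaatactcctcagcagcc
Dtx3l: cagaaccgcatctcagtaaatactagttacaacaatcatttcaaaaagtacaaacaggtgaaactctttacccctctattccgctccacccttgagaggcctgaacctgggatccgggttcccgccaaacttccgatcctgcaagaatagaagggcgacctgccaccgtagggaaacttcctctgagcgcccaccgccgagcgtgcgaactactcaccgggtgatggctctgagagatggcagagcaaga
In Bst2 the matches overlap one another and, by a few bases, a match to the gamma-activated site. In Gbp2 and Gbp3 they are on the other strand and lie nearer the start, at bases -59 to -50 and -45 to -30. In Cxcl10 the match lies far from the start, at bases -213 to -204. The window of Dtx3l holds no match to those letters. The element lay in 5 of the 11 with a window among those higher in WT on average and in 5 of the 13 with a window among those tested and not called.

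Total counts ran from 254762 to 8036622 per library in dataset A and from 2204502 to 7122087 in dataset B. The shallowest is RM palmitate replicate 2 of dataset A, where a single count is worth several CPM and 0 counts are frequent. RM palmitate replicates 2 and 3 of dataset B also stand apart, with scaling factors of 0.820 and 0.637. Fibroblast markers summed to 8094 to 11871 CPM in dataset A and to 14679 to 22669 in dataset B, all 11 of them detected. The 11 macrophage and leukocyte markers summed to at most 2.97 and 14.0 CPM, and Emr1, Tyrobp, Cd3e and Nkg7 were at 0 in every library of both datasets. Epithelial markers reached at most 1.24 and 14.0 CPM, and endothelial markers 6.90 and 8.44 CPM. Eif2ak2, which encodes PKR, had 6.88 to 17.2 CPM in dataset A and 7.35 to 22.7 in dataset B. On average it was lower in WT, by a log2 fold change of -0.47 (SE 0.14, adjusted p = 0.0123), and the counts do not separate an introduced PKR sequence from the cell's own.

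CPM values below are counts relative to the library size, which was scaled with edgeR's TMM method within each dataset, so that levels of A and B are on separate scales. Per kilobase of feature, the abundant members were B2m (53.1 CPM per kb in dataset A, 84.5 in B), Ifitm3 (32.3 and 70.5) and Rnf213 (17.0 and 56.6). Next came Trim25 (7.67 and 11.3), Ddx58 (6.89 and 13.3), Irf1 (5.49 and 12.7) and Gbp2 (4.94 and 15.5). At the other end, 7 genes with strong induction by interferon elsewhere were almost undetected and were not tested: Isg15, Oas1a, Oas2, Oas3, Psmb9, Rsad2 and Zbp1 had at most 6 counts in any library. Their totals over 12 libraries ran from 2 (Oas3) to 19 (Rsad2) counts in dataset A and from 2 (Oas2) to 22 (Zbp1) in dataset B. Ifnb1, the gene of interferon beta, had 0 counts in all 24 libraries.

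**Figure D1:**
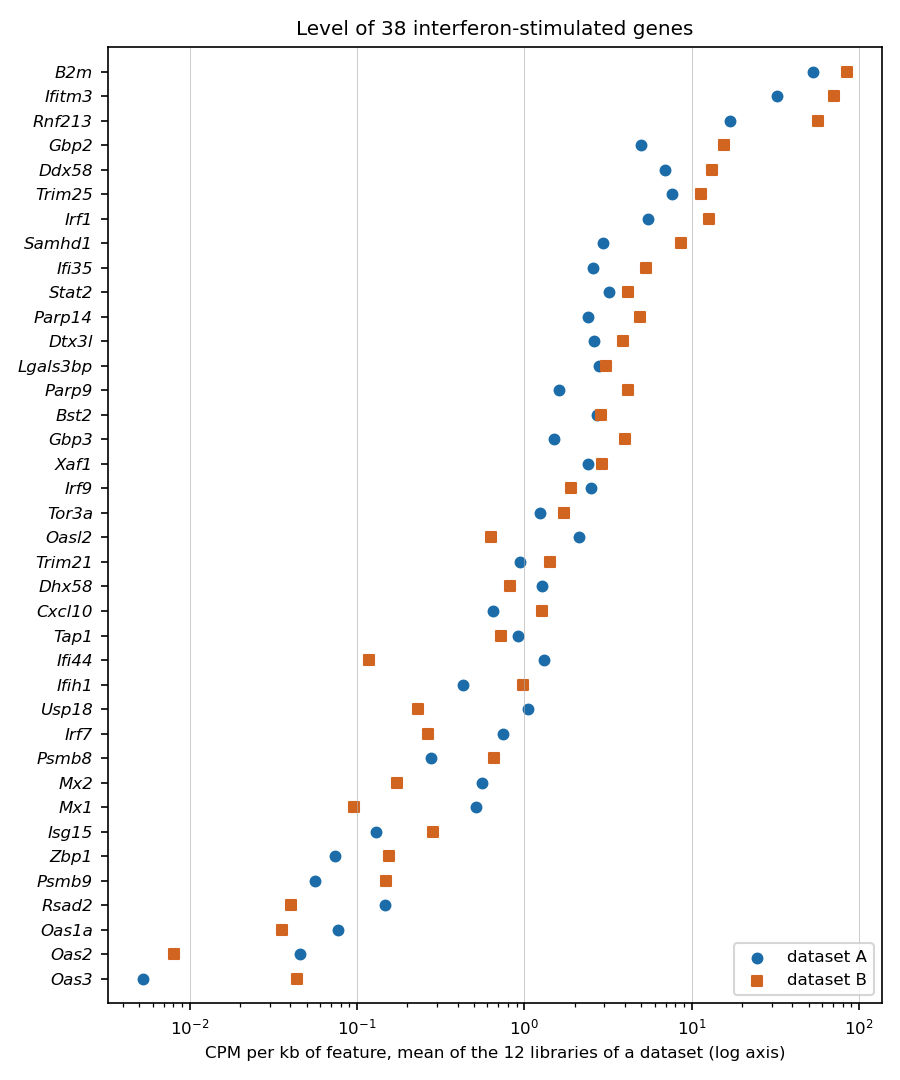
Level of the 38 genes in CPM per kb of feature (log axis), as the mean of the 12 libraries of dataset A (circles) and of dataset B (squares). B2m, Ifitm3 and Rnf213 stand at the top, and Oas1a, Oas2, Oas3, Rsad2 and Psmb9 at the bottom in one or both datasets.

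Genotype effects were tested with edgeR's quasi-likelihood test, two-sided, with Benjamini-Hochberg adjustment over all features tested and a threshold of 0.05, and every fold change is on the log2 scale of that fit. In mock cells of dataset A, 8 of 29 members were higher in WT and 0 lower: Oasl2, Ifi44, Usp18, Bst2, Dtx3l, Gbp2, Gbp3 and Lgals3bp. Of all 11328 features, 3.74% were called, 3.03% higher and 0.715% lower. With palmitate, 4 of 29 were higher (Oasl2, Ifi44, Usp18 and Dtx3l) against 2.49% of features, and 0 lower, against 0.936%. The median log2 difference between genotypes was 0.41 for the members in mock cells, against 0.01 for all features, and 0.58 with palmitate, against 0.02. All 3 WT libraries stood above all 3 RM libraries for 15 members in mock cells (17.5% of features) and for 9 with palmitate (11.6% of features), and the reverse order occurred for 1 member, Irf1, in mock cells (15.1% of features) and for 0 with palmitate (7.05%). Scaling decides how many members lie above 0: with TMM they were 28 and 29 of 29, and with total counts 23 and 20 of 29, while the median of all features then moved to -0.18 in mock cells and -0.39 with palmitate. Relative to that median the members lay at 0.40 under both scalings in mock cells, and at 0.56 and 0.58 with palmitate.

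The 8 calls in mock cells of dataset A were not equally firm. Dtx3l kept its call with each of the 6 libraries left out, and Gbp3 lost it only without WT mock replicate 2 (adjusted p = 0.0519). Without that library or without RM mock replicate 2 the count fell to 2, without RM mock replicate 1 to 3, without WT mock replicate 1 to 4 and without RM mock replicate 3 to 5. With total counts as the scaling it was 2, and DESeq2 called 4. With palmitate the count of 4 became 2 without WT palmitate replicate 2, RM palmitate replicate 1 or RM palmitate replicate 3, and 7 without WT palmitate replicate 1. Without the shallow RM palmitate replicate 2 it was 5.

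Dataset B gave another picture. In mock cells 3 of 26 members were higher in WT (Xaf1, B2m and Ifitm3, with 6.24% of features called higher) and 3 were lower (Parp14, Psmb8 and Rnf213, with 7.88% called lower). With palmitate 0 of 26 were called, against 7.81% of features, 3.62% higher and 4.2% lower. Of the members 2 had an unadjusted p under 0.05, as did 3203 of 12466 features. DESeq2 also called 0 members, and 4 were called when RM palmitate replicate 1 was left out. The median over members was -0.02 in mock cells and 0.03 with palmitate, next to 0.02 and -0.00 for all features. WT libraries all stood above RM libraries in mock cells for Cxcl10, Xaf1, B2m and Ifitm3 (4 members, 18.2% of features). They all stood below for Stat2, Ddx58, Bst2, Parp9, Parp14, Psmb8, Tap1 and Rnf213 (8 members, 18.6% of features). With palmitate WT libraries all stood above for Trim21 and Trim25 (2 members, 15.3% of features). They all stood below for Stat2 and Xaf1 (2 members, 14.7% of features), so Xaf1 had the reverse of its mock order.

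In a joint fit of all 24 libraries, 13 of 31 members were higher in WT on average over treatments and datasets, and 0 lower. Of all features 12.4% were higher and 13.1% lower. The 13 were B2m, Bst2, Dhx58, Dtx3l, Gbp2, Gbp3, Ifitm3, Irf7, Lgals3bp, Oasl2, Samhd1, Usp18 and Xaf1. The averaged effect was 0.99 for Dtx3l (adjusted p = 2.77e-07), 0.83 for Oasl2 (adjusted p = 0.01) and 0.66 for Bst2 (adjusted p = 0.0226). The Bst2 call held under 26 of 30 alternatives, and those of Dtx3l and Oasl2 under all 30. The number of members called was 12 with DESeq2, 8 with total counts and 12 to 15 with any single library left out. With the libraries that stand apart left out together, 11 were higher and 1, Rnf213, was lower (log2 fold change -0.30, adjusted p = 0.0222). Within this fit, 13 members were higher in WT in dataset A alone (8.74% of features) and 0 lower (6.95%), whereas dataset B had 2 higher (7.12%) and 2 lower (9.26%). With the libraries that stand apart left out, which leaves 1 RM palmitate library in dataset B, 17 were higher in A, and in B 0 were higher and 2, Parp14 and Rnf213, lower. With total counts 7 were higher in A, and in B 2 were higher and 0 lower. The difference between the datasets was itself tested: 6 members (Stat2, Oasl2, Bst2, Parp14, Dtx3l and Gbp3) had a larger WT to RM effect in dataset A (5.35% of features) and 0 a smaller one (2.53%). With total counts 3 of these calls were left, while the median of all features moved to -0.48. Relative to the median of all features the members lay at 0.60 under both scalings.

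**Figure D2:**
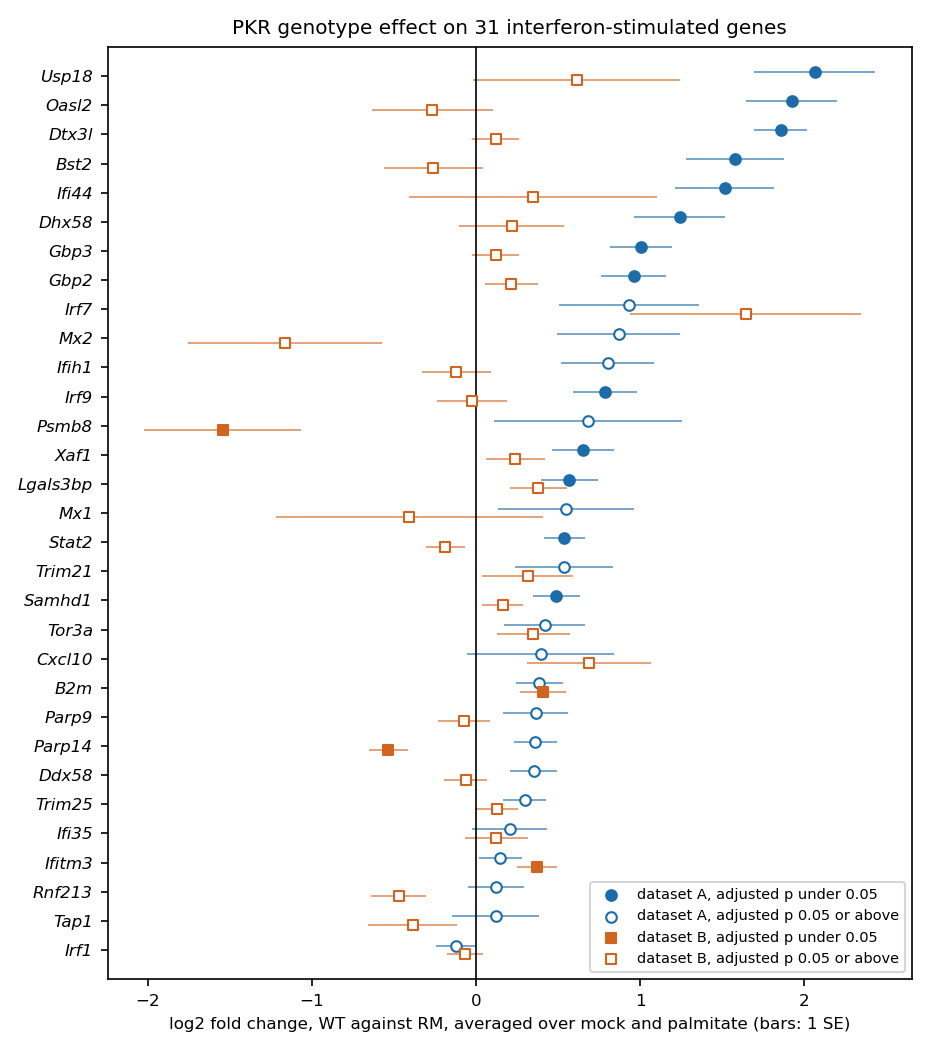
Log2 fold change of WT against RM, averaged over mock and palmitate, for 31 members in dataset A and in dataset B (joint edgeR fit, bars 1 SE, filled symbols adjusted p under 0.05). In dataset A 30 of 31 members lie above 0, with 13 filled, and in dataset B 17 lie above 0, with 4 filled.

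For palmitate against mock, the calls within a single dataset lay in dataset B. In dataset A 0 of 29 were called in WT, against 0.335% of features, and 0 of 29 in RM, against 0.477%. At an unadjusted p under 0.05 there were 5 and 6 members, next to 1332 and 1514 of 11328 features. DESeq2 called 0 in each. In dataset B 5 of 26 fell with palmitate in WT (Stat2, Irf1, Dtx3l, Xaf1 and B2m, with 6.12% of features called lower) and 1, Cxcl10, rose (9.43% called higher). In RM cells 4 of 26 fell (Stat2, Parp14, Dtx3l and Rnf213, with 2.45% of features called lower) and Cxcl10 rose again (5.08% called higher, and 7.53% in either direction). All 5 calls in RM ended when palmitate replicates 2 and 3, which stand apart, were left out together. That fit has 1 RM palmitate library, taken to vary like the other groups, and gave log2 changes of 2.87 for Cxcl10, -0.57 for Stat2, -0.54 for Parp14, -0.42 for Dtx3l and -0.31 for Rnf213. Leaving out a single one gave 2 (replicate 2) or 1 (replicate 3), and leaving out RM mock replicates 1, 2 or 3 gave 2, 1 and 3. Total counts gave 10, but the median of all 12466 features then moved to -0.38. Of these features 1998 were then called lower and 433 higher. Relative to the median of all features the members lay at -0.32 with TMM and -0.28 with total counts. The WT count became 3 with total counts. On average over genotypes and datasets, 7 of 31 fell (9.41% of features) and 1 rose (10.9%), with 20.3% of features called in all, and the median was -0.28 against -0.01 for all features. By order of the libraries alone, all WT palmitate libraries of dataset A stood above the mock ones for 1 member, Irf1 (7.66% of features), and below for 6 (10.8%), and in RM for 0 (6.97%) and 9 (14.0%). In dataset B they stood above for 3 in WT (Trim25, Cxcl10 and Rnf213; 19.6%) and 2 in RM (Cxcl10 and Ifitm3; 15.6%), and below for 8 (19.1%) and 9 (14.7%). The interaction of genotype and palmitate was called for 0 of 29 members in dataset A and 0 of 26 in dataset B, as for all features (0.0% in each). At an unadjusted p under 0.05 there were 2 and 6 members, next to 469 of 11328 features in A and 2011 of 12466 in B. DESeq2 called 0 and 1, and leaving out RM palmitate replicate 1 of dataset B gave 4.

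**Figure D3:**
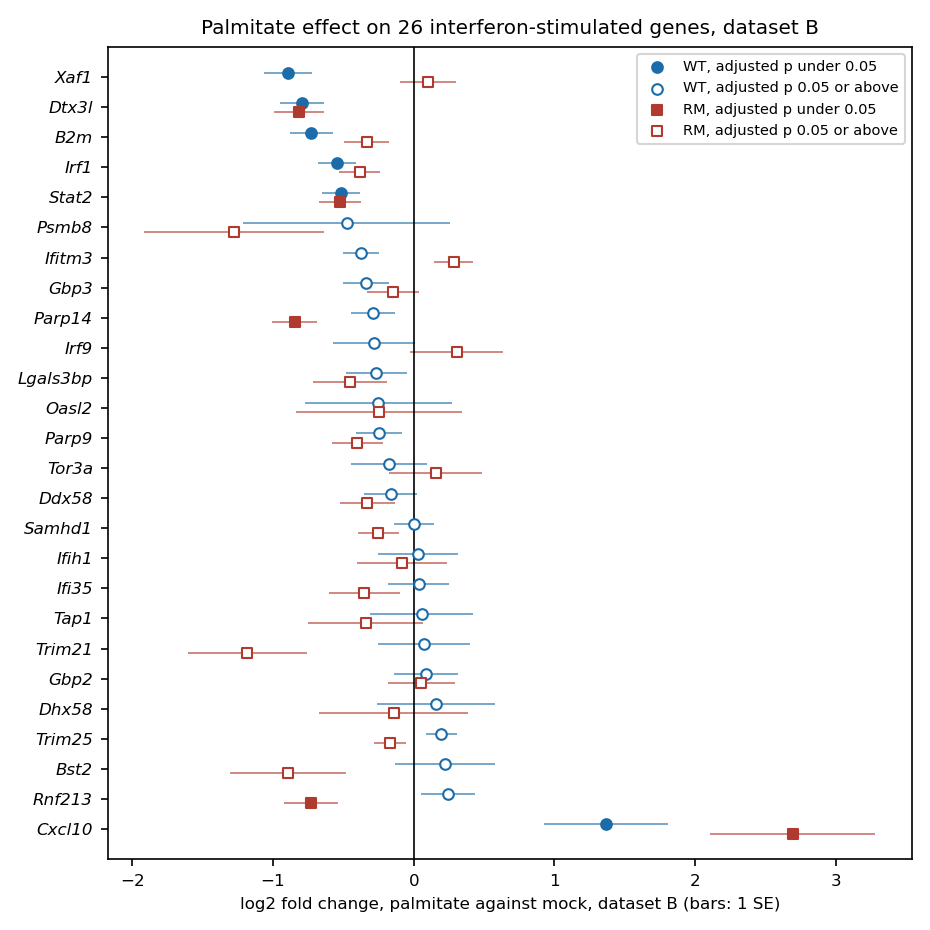
Log2 fold change of palmitate against mock in dataset B for 26 members, in WT (circles) and RM (squares) cells, with bars of 1 SE and filled symbols for adjusted p under 0.05. Cxcl10 stands to the right in both lines; Dtx3l and Stat2 stand to the left in both, Xaf1, B2m and Irf1 are filled in WT only, and Parp14 and Rnf213 in RM only. Between the lines no member's difference passed the test.

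Among the signalling proteins and transcription factors, Stat2 is the ISGF3 subunit that binds IRF9. For Stat2 in dataset A there were 19.3, 21.5 and 18.98 CPM in mock WT libraries, 14.2, 14.8 and 12.3 in WT with palmitate, 11.7, 13.5 and 11.7 in mock RM and 13.03, 10.3 and 8.01 in RM with palmitate. In dataset B Stat2 had 17.9, 21.5 and 21.6 CPM in mock WT libraries, 15.04, 14.1 and 13.4 in WT with palmitate, 22.3, 24.8 and 22.2 in mock RM and 15.5, 16.1 and 16.9 in RM with palmitate. In dataset A the mock WT libraries stood above all RM libraries, and in dataset B they lay below the mock RM libraries. The genotype effect was 0.70 (SE 0.20, adjusted p = 0.051) in mock cells of dataset A, and the effect in A exceeded that in B by 0.73 (SE 0.17, adjusted p = 0.00864). With palmitate Stat2 fell in dataset B by a log2 change of -0.52 (SE 0.14, adjusted p = 0.018) in WT and -0.53 (SE 0.15, adjusted p = 0.042) in RM. On average over genotypes and datasets the change was -0.44 (SE 0.09, adjusted p = 0.000733), a call that held under all 30 alternatives, whereas the RM call held with none of 6 libraries left out. The WT call held with 2 of 6 left out and was lost with DESeq2 and with total counts (adjusted p up to 0.0848).

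Irf1 encodes a transcription factor that interferon gamma induces strongly. For Irf1 in dataset A there were 16.6, 17.4 and 16.5 CPM in mock WT libraries, 20.1, 23.7 and 21.6 in WT with palmitate, 21.6, 20.4 and 21.8 in mock RM and 22.6, 6.896 and 19.6 in RM with palmitate. In dataset B Irf1 had 54.8, 51.9 and 46.98 CPM in mock WT libraries, 31.03, 39.6 and 35.1 in WT with palmitate, 54.8, 54.01 and 43.2 in mock RM and 33.8, 43.2 and 40.8 in RM with palmitate. Palmitate libraries of dataset B lay below the mock libraries in WT, where the fall was -0.55 (SE 0.14, adjusted p = 0.0132). That call was lost with total counts and without WT mock replicate 2 or WT palmitate replicate 1 or 3 (adjusted p up to 0.0826). In dataset A the WT palmitate libraries lay above the mock ones, with an effect of 0.37 (SE 0.20, adjusted p = 0.486) that did not pass the test.

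Irf7 amplifies interferon production and was counted at low levels. For Irf7 in dataset A there were 0.828, 2.08 and 4.36 CPM in mock WT libraries, 2.95, 1.31 and 1.03 in WT with palmitate, 0.911, 1.01 and 1.78 in mock RM and 1.12, 3.45 and 0.6901 in RM with palmitate. In dataset B Irf7 had 0.826, 0.609 and 1.17 CPM in mock WT libraries, 0.4799, 1.82 and 1.002 in WT with palmitate, 0.619, 0.682 and 0 in mock RM and 0, 0.554 and 0 in RM with palmitate, with 0 in 3 RM libraries. The libraries of the genotypes overlap in each dataset, and the averaged difference was 1.29 (SE 0.41, adjusted p = 0.0213). It did not pass without RM palmitate replicate 1 of dataset B (adjusted p = 0.0604). Irf9, the DNA-binding subunit of ISGF3, shares its locus with Rnf31 on the same strand. Its averaged effect of 0.38 (SE 0.14, adjusted p = 0.0522) missed the threshold, and in the joint fit it was 0.79 (SE 0.20, adjusted p = 0.00679) in dataset A and -0.02 (SE 0.21, adjusted p = 0.964) in dataset B.

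Of the cytosolic RNA sensors, Dhx58 encodes LGP2, which regulates signalling by the helicases RIG-I and MDA5. For Dhx58 in dataset A there were 5.799, 2.31 and 5.29 CPM in mock WT libraries, 3.77, 6.53 and 3.43 in WT with palmitate, 2.13, 1.74 and 1.63 in mock RM and 1.82, 3.45 and 1.93 in RM with palmitate. In dataset B Dhx58 had 2.48, 1.83 and 1.84 CPM in mock WT libraries, 2.24, 2.34 and 2.34 in WT with palmitate, 1.61, 1.64 and 3.07 in mock RM and 0.574, 3.33 and 2.33 in RM with palmitate. WT mock libraries of dataset A all stood above RM mock libraries, whereas in dataset B the groups overlap. The averaged effect was 0.73 (SE 0.21, adjusted p = 0.0126), from 1.24 in dataset A and 0.22 in B, and it held under all 30 alternatives. Ddx58, which encodes RIG-I, and Ifih1, which encodes MDA5, did not pass in any comparison. Their averaged effects were 0.14 (SE 0.10, adjusted p = 0.297) and 0.34 (SE 0.18, adjusted p = 0.159).

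Among the antiviral effectors, Oasl2 (mm9 chr5:115346943-115362243, plus strand), an oligoadenylate synthetase-like protein, had the largest log2 effect in palmitate cells of dataset A. For Oasl2 in dataset A there were 11.05, 11.3 and 6.53 CPM in mock WT libraries, 7.203, 10.2 and 17.8 in WT with palmitate, 3.34, 4.05 and 3.85 in mock RM and 1.54, 0 and 2.48 in RM with palmitate. In dataset B Oasl2 had 2.34, 2.28 and 1.505 CPM in mock WT libraries, 1.92, 1.302 and 1.84 in WT with palmitate, 2.23, 3.68 and 1.02 in mock RM and 3.15, 0 and 2.33 in RM with palmitate. Every WT library of dataset A stood above every RM library, while in dataset B the groups overlap. Oasl2 was 2.59-fold higher in WT in mock cells, a log2 difference of 1.37 (SE 0.32, adjusted p = 0.0191), and 5.62-fold higher with palmitate, 2.49 (SE 0.39, adjusted p = 0.000651). The palmitate call held under all 11 alternatives, and the mock call was lost with total counts and without WT mock replicate 1 or 2 or RM mock replicate 1 or 2, with adjusted p up to 0.135. In the joint fit the effect was 1.93 in A and -0.27 in B, a difference of 2.19 (SE 0.48, adjusted p = 0.00477) that missed the threshold only without RM palmitate replicate 1 of dataset B (adjusted p = 0.102).

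Bst2 encodes tetherin, a membrane protein that holds budding virus on the cell. For Bst2 in dataset A there were 4.69, 3.702 and 2.49 CPM in mock WT libraries, 3.44, 2.39 and 2.74 in WT with palmitate, 0.608, 0.869 and 1.93 in mock RM and 0.701, 0 and 1.38 in RM with palmitate. In dataset B Bst2 had 2.07, 2.13 and 1.17 CPM in mock WT libraries, 1.5995, 1.82 and 2.84 in WT with palmitate, 3.097, 3.41 and 3.07 in mock RM and 1.72, 1.66 and 1.75 in RM with palmitate. The order of the mock groups is opposite in the datasets: WT libraries all lie above RM libraries in A and all below in B. The effect in mock cells was 1.67 (SE 0.42, adjusted p = 0.0308) in A and -0.82 (SE 0.33, adjusted p = 0.109) in B, the second with an unadjusted p of 0.025. The difference between the datasets was 1.84 (SE 0.43, adjusted p = 0.0078) and passed under all 30 alternatives. The dataset A call in mock cells ended with DESeq2, with total counts and without WT mock replicate 1 or 2 or RM mock replicate 1 or 2 (adjusted p up to 0.178).

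Gbp2 and Gbp3 encode guanylate-binding proteins, large GTPases that act on vacuoles holding pathogens. For Gbp3 in dataset A there were 8.84, 9.25 and 6.22 CPM in mock WT libraries, 5.07, 3.92 and 5.15 in WT with palmitate, 3.04, 2.896 and 2.97 in mock RM and 4.34, 3.45 and 1.93 in RM with palmitate. In dataset B Gbp3 had 13.2, 15.7 and 15.5 CPM in mock WT libraries, 13.4, 10.9 and 10.5 in WT with palmitate, 13.6, 12.003 and 12.5 in mock RM and 12.04, 9.42 and 12.8 in RM with palmitate. WT mock libraries of dataset A are all above 6 CPM and RM mock libraries all near 3, whereas in dataset B the ranges overlap. Gbp3 was 2.74-fold higher in WT mock cells of dataset A, 1.46 (SE 0.29, adjusted p = 0.00434). Its averaged effect was 0.56 (SE 0.12, adjusted p = 0.00113), and A exceeded B by 0.89 (SE 0.24, adjusted p = 0.0202).

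For Gbp2 in dataset A there were 14.9, 23.1 and 13.1 CPM in mock WT libraries, 10.5, 16.1 and 15.1 in WT with palmitate, 9.11, 7.39 and 9.49 in mock RM and 7.01, 17.2 and 6.21 in RM with palmitate. In dataset B Gbp2 had 39.8, 42.5 and 41.1 CPM in mock WT libraries, 49.9, 43.2 and 37.8 in WT with palmitate, 39.9, 36.6 and 30.2 in mock RM and 54.8, 29.4 and 23.3 in RM with palmitate. Mock WT libraries exceeded mock RM libraries throughout in dataset A, by 0.99 (SE 0.25, adjusted p = 0.0297), a call that ended with DESeq2, with total counts and without any one mock library other than WT replicate 3 (adjusted p up to 0.281). The averaged effect of 0.59 (SE 0.13, adjusted p = 0.0015) held under all 30 alternatives.

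Ifitm3, a membrane protein that blocks viral fusion, differed in dataset B. For Ifitm3 in dataset A there were 28.2, 25.2 and 19.9 CPM in mock WT libraries, 20.95, 25.9 and 24.01 in WT with palmitate, 20.05, 23.6 and 25.2 in mock RM and 17.2, 6.896 and 25.3 in RM with palmitate. In dataset B Ifitm3 had 71.2, 58.002 and 53.2 CPM in mock WT libraries, 47.99, 48.2 and 44.8 in WT with palmitate, 38.2, 38.3 and 35.8 in mock RM and 41.9, 42.7 and 53.04 in RM with palmitate. Here all mock WT libraries lie above 53 CPM and all mock RM libraries below 39 in dataset B, while in dataset A they overlap. The dataset B effect was 0.70 (SE 0.13, adjusted p = 0.00285) and held under all 12 alternatives, whereas the averaged effect of 0.26 (SE 0.09, adjusted p = 0.0346) held under 17 of 30. Samhd1 encodes an enzyme that breaks down deoxynucleotides and shares its locus with a miRNA on the same strand. For Samhd1 in dataset A there were 25.1, 25.7 and 21.2 CPM in mock WT libraries, 18.5, 26.8 and 36.4 in WT with palmitate, 19.6, 18.8 and 14.97 in mock RM and 16.4, 17.2 and 19.5 in RM with palmitate. In dataset B Samhd1 had 74.9, 56.3 and 68.7 CPM in mock WT libraries, 72.3, 67.7 and 60.6 in WT with palmitate, 68.5, 65.5 and 60.9 in mock RM and 66.8, 49.3 and 46.05 in RM with palmitate. The groups lie close together in B, and the averaged effect was 0.33 (SE 0.09, adjusted p = 0.0114), lost with total counts (adjusted p = 0.143) and without the libraries that stand apart.

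Further effectors are Mx1 and Mx2, dynamin-like GTPases, which were tested in dataset A and in the joint fit and passed in none of these comparisons. Ifi44 was tested in dataset A and in the joint fit. It lies outside the rule for naming genes and was chosen after its values were seen, to complete the small counts of called members. For Ifi44 in dataset A there were 4.97, 7.17 and 4.67 CPM in mock WT libraries, 4.58, 5.44 and 5.49 in WT with palmitate, 3.19, 1.88 and 1.19 in mock RM and 1.96, 3.45 and 1.24 in RM with palmitate. WT and RM libraries do not overlap there under either treatment, with effects of 1.44 (SE 0.34, adjusted p = 0.0169) in mock cells and 1.62 (SE 0.38, adjusted p = 0.0207) with palmitate. Without WT mock replicate 2 the mock adjusted p was 0.169, and without RM palmitate replicate 3 the palmitate adjusted p was 0.160. Ifi35 passed in no comparison.

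The genes that attach or remove ubiquitin, ISG15 or ADP-ribose include Dtx3l, Parp14, Rnf213 and Usp18. Dtx3l (mm9 chr16:35926597-35939237, minus strand) encodes an E3 ubiquitin ligase that works as a partner of PARP9. For Dtx3l in dataset A there were 26.8, 34.2 and 23.6 CPM in mock WT libraries, 13.4, 20.02 and 22.98 in WT with palmitate, 9.72, 8.83 and 5.93 in mock RM and 5.04, 3.45 and 4.55 in RM with palmitate. In dataset B Dtx3l had 29.3, 32.1 and 27.6 CPM in mock WT libraries, 16.95, 18.5 and 16.04 in WT with palmitate, 26.8, 28.5 and 27.1 in mock RM and 20.4, 11.6 and 12.8 in RM with palmitate. In dataset A the lowest WT library exceeded the highest RM library, and in dataset B the genotypes overlap within each treatment. Dtx3l was 3.47-fold higher in WT in mock cells of A, 1.79 (SE 0.23, adjusted p = 6.01e-05), and 3.87-fold higher with palmitate, 1.95 (SE 0.28, adjusted p = 0.000323). The dataset B effects were 0.11 (SE 0.15, adjusted p = 0.662) and 0.13 (SE 0.18, adjusted p = 0.858), and A exceeded B by 1.74 (SE 0.22, adjusted p = 6.45e-06). These dataset A calls and the difference between datasets held under every alternative run.

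Dtx3l also fell with palmitate in dataset B, by -0.80 (SE 0.16, adjusted p = 0.00355) in WT and -0.82 (SE 0.18, adjusted p = 0.0159) in RM. The dataset A changes of -0.62 (SE 0.22, adjusted p = 0.27) and -0.78 (SE 0.29, adjusted p = 0.244) had the same sign and did not pass. Averaged over genotypes and datasets the fall was -0.74 (SE 0.11, adjusted p = 2.3e-05). Parp9, whose annotation overlaps the start of Dtx3l on the other strand, did not pass in any comparison, with genotype effects of 0.20 (SE 0.31, adjusted p = 0.766) in mock cells of dataset A and -0.15 (SE 0.16, adjusted p = 0.574) in B. Because the use of strand in counting datasets A and B is not stated, reads in the overlap cannot be assigned to one of the genes.

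Parp14 (mm9 chr16:35832960-35871630, minus strand) encodes a mono-ADP-ribosyltransferase. For Parp14 in dataset A there were 24.3, 24.3 and 22.4 CPM in mock WT libraries, 16.04, 18.7 and 15.4 in WT with palmitate, 17.5, 16.9 and 19.1 in mock RM and 16.4, 13.8 and 10.1 in RM with palmitate. In dataset B Parp14 had 29.2, 32.9 and 33.8 CPM in mock WT libraries, 27.5, 22.1 and 28.4 in WT with palmitate, 48.9, 58.5 and 61.1 in mock RM and 38.4, 26.6 and 26.8 in RM with palmitate. Mock WT libraries are all above mock RM libraries in dataset A and all below them in B. The effect was 0.41 (SE 0.19, adjusted p = 0.251) in A, with an unadjusted p of 0.043, and -0.81 (SE 0.15, adjusted p = 0.00279) in B, and the difference between the datasets was 0.90 (SE 0.18, adjusted p = 0.00186), lost with total counts (adjusted p = 0.220). Palmitate lowered Parp14 in RM cells of dataset B by -0.84 (SE 0.16, adjusted p = 0.00811), and on average by -0.50 (SE 0.09, adjusted p = 0.000215), which held under all 30 alternatives.

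Rnf213 (mm9 chr11:119254414-119348732, plus strand), a giant ubiquitin ligase, was the member with the highest CPM. For Rnf213 in dataset A there were 294, 289.9 and 333 CPM in mock WT libraries, 363, 284 and 235 in WT with palmitate, 308, 291 and 297 in mock RM and 323, 231 and 204 in RM with palmitate. In dataset B Rnf213 had 650.2, 769 and 754 CPM in mock WT libraries, 887, 839 and 849.8 in WT with palmitate, 1406, 1407 and 1409.9 in mock RM and 1128, 808 and 613 in RM with palmitate. The 3 mock RM libraries of dataset B lie within a few CPM of one another and above all WT libraries, whereas in dataset A all groups overlap. The mock effect in B was -0.96 (SE 0.19, adjusted p = 0.00449), lost only with total counts (adjusted p = 0.0541), and the fall with palmitate in RM was -0.73 (SE 0.19, adjusted p = 0.0331). Without replicates 2 and 3 of that group, which stand apart, it was -0.31 (adjusted p = 0.502) with 1 library left in that group, and the call held with 1 of 6 single libraries left out.

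Usp18 removes ISG15 from proteins and restrains the interferon receptor. For Usp18 in dataset A there were 1.93, 4.86 and 3.42 CPM in mock WT libraries, 2.78, 4.14 and 1.37 in WT with palmitate, 0.456, 0.869 and 1.33 in mock RM and 0.701, 0 and 0.552 in RM with palmitate. In dataset B Usp18 had 0.275, 0.609 and 0.502 CPM in mock WT libraries, 0.4799, 0.521 and 0.501 in WT with palmitate, 0.372, 0.273 and 0.256 in mock RM and 0, 1.11 and 0 in RM with palmitate, near the limit of detection. WT and RM libraries of dataset A do not overlap under either treatment, with effects of 1.93 (SE 0.47, adjusted p = 0.0228) and 2.20 (SE 0.56, adjusted p = 0.0321). Both calls ended with total counts and without some single libraries (adjusted p up to 0.228 and 0.175), and the palmitate call also with a replicate block (1.99, adjusted p = 0.0588), while the averaged effect of 1.34 (SE 0.37, adjusted p = 0.00906) held under all 30 alternatives. Trim21, an antibody receptor and ubiquitin ligase, was called in 1 comparison only. For Trim21 in dataset A there were 3.04, 3.93 and 3.42 CPM in mock WT libraries, 1.64, 3.05 and 4.12 in WT with palmitate, 1.82, 3.62 and 3.85 in mock RM and 1.68, 0 and 1.24 in RM with palmitate. In dataset B Trim21 had 2.89, 6.09 and 3.51 CPM in mock WT libraries, 3.04, 3.39 and 6.52 in WT with palmitate, 5.33, 4.64 and 5.63 in mock RM and 2.58, 1.66 and 2.33 in RM with palmitate. All RM palmitate libraries lie below all RM mock libraries in each dataset, and the averaged palmitate effect was -0.63 (SE 0.20, adjusted p = 0.0269), kept under 24 of 30 alternatives. Trim25, the ligase of RIG-I signalling, passed in no comparison.

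**Figure D4:**
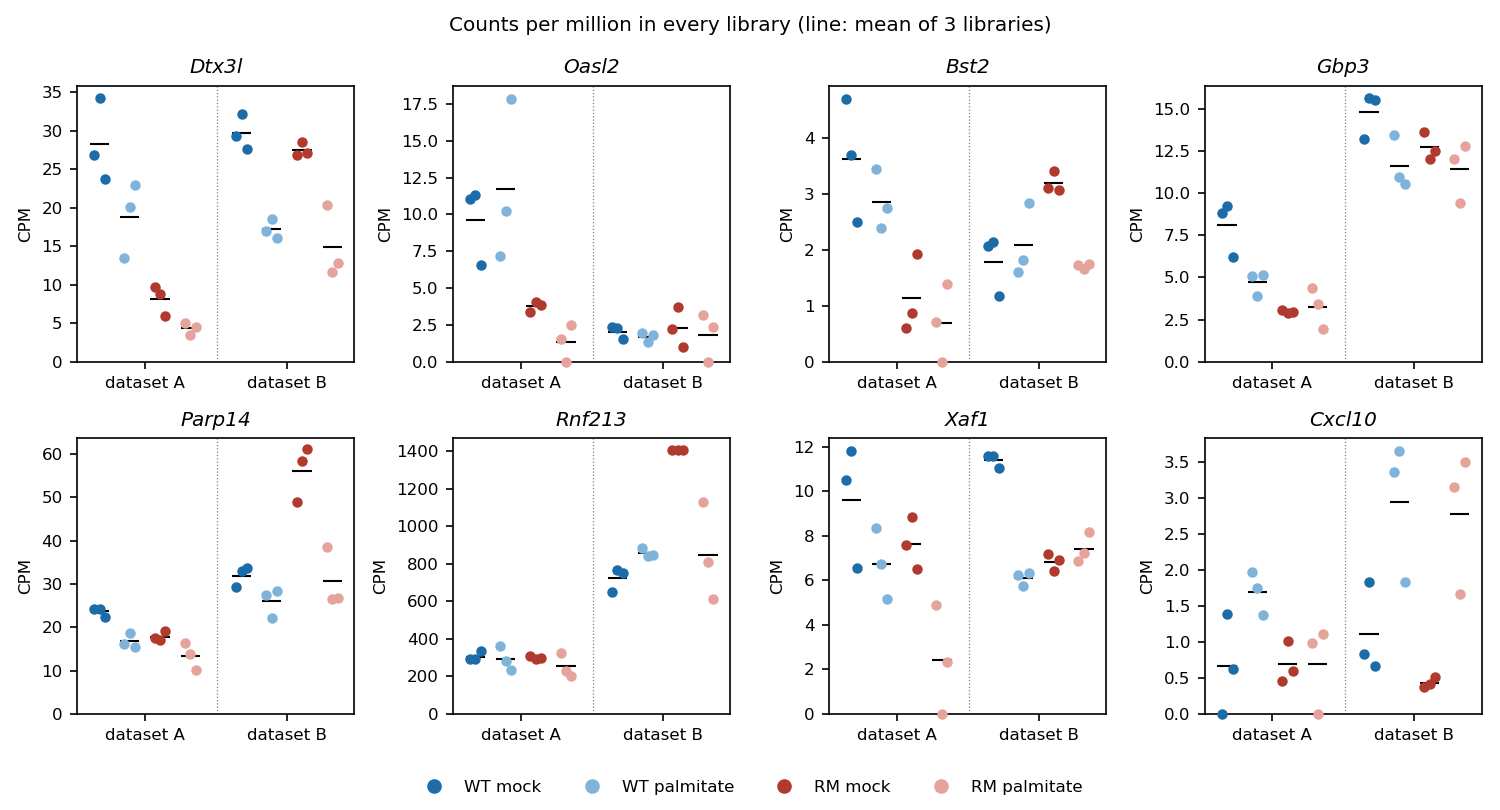
CPM of Dtx3l, Oasl2, Bst2, Gbp3, Parp14, Rnf213, Xaf1 and Cxcl10 in every library of datasets A and B, with a line at the mean of the 3 libraries of each group; A and B are scaled separately. Dtx3l and Oasl2 separate WT from RM in dataset A only, Parp14 and Rnf213 are high in RM mock of dataset B, and Cxcl10 is high with palmitate in dataset B.

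In antigen presentation, B2m encodes the light chain of MHC class I and overlaps Patl2 on the other strand, with the same limit as for Dtx3l and Parp9. For B2m in dataset A there were 58.8, 57.6 and 53.5 CPM in mock WT libraries, 46.98, 55.7 and 49.7 in WT with palmitate, 42.7, 44.02 and 44.3 in mock RM and 44.4, 10.3 and 40.03 in RM with palmitate. In dataset B B2m had 127, 109 and 77.6 CPM in mock WT libraries, 67.3, 63.03 and 59.1 in WT with palmitate, 69.9, 72.6 and 63.4 in mock RM and 60.8, 47.1 and 54.8 in RM with palmitate. WT mock libraries exceed RM mock libraries in both datasets, by 0.38 (SE 0.23, adjusted p = 0.414) in A and 0.61 (SE 0.15, adjusted p = 0.0138) in B. The dataset B call ended with total counts and without WT mock replicate 1 or 2 or RM mock replicate 3 (adjusted p up to 0.0796). B2m fell with palmitate in WT cells of dataset B by -0.73 (SE 0.15, adjusted p = 0.0048), under all 12 alternatives. Averaged over genotypes and datasets the palmitate effect was -0.35 (adjusted p = 0.0151), under all 30 alternatives. In the joint fit the genotype effect was of like size in the datasets, 0.39 and 0.41, with an average of 0.40 (SE 0.10, adjusted p = 0.00457). Psmb8, an immunoproteasome subunit outside the naming rule and chosen after its values were seen, was lower in WT mock cells of dataset B, by -1.96 (SE 0.54, adjusted p = 0.0236). It had 0.551, 0.761 and 0.502 CPM in WT and 2.35, 2.05 and 3.07 in RM, and the call held with none of 6 libraries left out. Tap1, the peptide transporter, passed in no comparison.

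Of the remaining members, Cxcl10 encodes a chemokine that draws activated T cells and was the single gene that rose with palmitate. For Cxcl10 in dataset A there were 0, 1.39 and 0.622 CPM in mock WT libraries, 1.96, 1.74 and 1.37 in WT with palmitate, 0.456, 1.01 and 0.593 in mock RM and 0.981, 0 and 1.104 in RM with palmitate. In dataset B Cxcl10 had 0.826, 1.83 and 0.669 CPM in mock WT libraries, 3.36, 3.65 and 1.84 in WT with palmitate, 0.372, 0.409 and 0.511 in mock RM and 3.15, 1.66 and 3.497 in RM with palmitate. All palmitate libraries of dataset B exceed all mock libraries of the same line, at 21 counts or fewer per library. Cxcl10 rose 2.58-fold in WT, 1.37 (SE 0.44, adjusted p = 0.0443), and 6.47-fold in RM, 2.69 (SE 0.59, adjusted p = 0.0167). The WT call ended with DESeq2, with total counts and without WT mock replicate 1 or 3 or WT palmitate replicate 1 or 2 (adjusted p up to 0.152). The RM call also ended without RM mock replicate 1 or 2, without RM palmitate replicate 3, and without palmitate replicates 2 and 3 together (adjusted p up to 0.172). Cxcl10 overlaps Art3 on the other strand, so their reads in the overlap of datasets A and B cannot be told apart. The average over genotypes and datasets was 1.48 (SE 0.29, adjusted p = 0.000641), a 2.78-fold rise that held under all 30 alternatives, with Cxcl10 too low to be tested in dataset A alone.

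Xaf1 encodes a pro-apoptotic partner of XIAP. For Xaf1 in dataset A there were 10.5, 11.8 and 6.53 CPM in mock WT libraries, 8.35, 6.75 and 5.15 in WT with palmitate, 7.59, 8.83 and 6.52 in mock RM and 4.904, 0 and 2.35 in RM with palmitate. In dataset B Xaf1 had 11.6, 11.6 and 11.04 CPM in mock WT libraries, 6.24, 5.73 and 6.35 in WT with palmitate, 7.18, 6.41 and 6.91 in mock RM and 6.88, 7.21 and 8.16 in RM with palmitate. In dataset B the 3 WT mock libraries stand near 11 CPM and the other 9 libraries between 5 and 9. Xaf1 was higher in WT mock cells of B by 0.74 (SE 0.16, adjusted p = 0.00784) and fell with palmitate in WT by -0.89 (SE 0.17, adjusted p = 0.00275), each under all 12 alternatives. In RM cells of B the change was 0.10 (SE 0.20, adjusted p = 0.846), and the interaction was -0.99 (SE 0.26, adjusted p = 0.118), which did not pass. In dataset A all RM palmitate libraries lay below all RM mock libraries (14.0% of features). Averaged over genotypes and datasets the palmitate effect was -0.59 (adjusted p = 0.00233), under all 30 alternatives. The averaged genotype effect was 0.45 (adjusted p = 0.0132) and held under 28 of 30.

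Lgals3bp, a secreted galectin-binding glycoprotein, completes the genes that were called. For Lgals3bp in dataset A there were 10.8, 13.2 and 12.1 CPM in mock WT libraries, 7.69, 8.49 and 6.52 in WT with palmitate, 7.14, 5.36 and 6.97 in mock RM and 6.87, 0 and 6.35 in RM with palmitate. In dataset B Lgals3bp had 9.92, 9.13 and 12.04 CPM in mock WT libraries, 9.44, 9.897 and 6.68 in WT with palmitate, 9.91, 8.18 and 6.91 in mock RM and 5.74, 8.31 and 4.66 in RM with palmitate. Mock WT libraries stand above mock RM libraries in dataset A, by 0.89 (SE 0.24, adjusted p = 0.0378), a call that held with none of 6 libraries left out. The averaged genotype effect was 0.48 (SE 0.12, adjusted p = 0.00531) and held under all 30 alternatives, and the averaged palmitate effect of -0.34 (SE 0.12, adjusted p = 0.0482) under 9 of 30. Tor3a, an AAA ATPase of the endoplasmic reticulum, had positive genotype effects in all 4 pairs of groups and an averaged effect of 0.38 (SE 0.17, adjusted p = 0.0883), which did not pass.

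Agreement between the datasets can be read over the 24 members tested in both, which share no library. The mock genotype effect had the same sign in A and B for 11 of the 24, against 59.8% of 11117 features, and the palmitate genotype effect for 16, against 58.6%. As a description across genes, Pearson's r between the datasets was 0.01 in mock and -0.02 with palmitate, against 0.26 and 0.07 over all features. The palmitate effect had the same sign for 14 members in WT (57.9% of features) and 15 in RM (59.3%). Its r was 0.24 and 0.09, against 0.27 and 0.29 over all features. No member was called in both datasets in any of these 4 comparisons. Only 58, 60, 28 and 24 of the 11117 features were, so 0 of 24 members lies near that share. All 4 genotype effects lay above 0 for 9 of 24 members (B2m, Dhx58, Dtx3l, Gbp2, Gbp3, Ifitm3, Lgals3bp, Samhd1 and Tor3a; 16.1% of features) and below 0 for 0 (14.4%). All 4 palmitate effects lay below 0 for 7 (B2m, Ddx58, Dtx3l, Lgals3bp, Parp14, Parp9 and Stat2; 16.9%) and above 0 for 0 (12.2%). Of the 13 members higher in WT on average, 11 lay above 0 in each dataset, and Bst2 and Oasl2 lay below 0 in dataset B.

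Rnf213 takes a large share of the members' summed level. In dataset A the 38 genes summed to 702 ± 20.1 CPM (SD, n = 3) for mock WT, 646 ± 26.6 for WT with palmitate, 577 ± 1.74 for mock RM and 476 ± 98.7 for RM with palmitate. In dataset B the sums were 1345 ± 38.7, 1378 ± 41.4, 1990.2 ± 21.2 and 1325 ± 323. Without Rnf213 the mean sum was higher in WT than in RM under each treatment in both datasets, but in dataset B the libraries overlapped. The dataset B sums were 621 ± 41.4, 519 ± 22.1, 583 ± 23.1 and 475 ± 68.9, and the dataset A sums 396 ± 35.7, 352 ± 44.9, 278 ± 7.95 and 223 ± 48.8. In dataset B they ran from 581 to 663 in mock WT and 556 to 597 in mock RM. With palmitate they ran from 495 to 537 in WT and 430 to 554 in RM. Abundant members weigh most in such sums, and B2m and Ifitm3 were higher in WT mock cells of dataset B.

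Other genes of the pathway were taken from a list of 107 symbols, of which 102 were found and 83 tested jointly. Of these 22 were higher in WT on average (12.4% of features) and 5 lower (13.1%), with 25.5% of features called in either direction. The same shares apply to the groups by role that follow. Among 10 ligands, receptors and kinases 2 were higher, including Jak1, a receptor kinase, by 0.71 (SE 0.20, adjusted p = 0.0097). The receptor genes Ifnar1 and Ifnar2 had 0.03 and -0.15 and were not called. Of 4 negative regulators Socs3, a feedback inhibitor of JAK kinases, was lower, by -1.01 (SE 0.16, adjusted p = 4.22e-05). Among 13 sensors and adaptors Mavs, the mitochondrial adaptor of RIG-I, was higher, by 0.45 (SE 0.11, adjusted p = 0.00284), and Traf3 was lower. Of 9 genes whose proteins bind double-stranded RNA or act on RNA, 1 was higher and 2, including Eif2ak2, were lower. Of 47 further induced genes 18 were higher (12.4% of features) and 1 lower (13.1%). Tapbp, the tapasin of the peptide-loading complex, had the smallest adjusted p of these, with 1.65 (SE 0.14, adjusted p = 7.08e-09), from 3.29 in dataset A and 0.01 in B. For Tapbp in dataset A there were 691, 617 and 473 CPM in mock WT libraries, 214, 348 and 515 in WT with palmitate, 48.6, 54.02 and 56.9 in mock RM and 47.2, 10.3 and 49.3 in RM with palmitate. Ifit3 had 1.88 (SE 0.23, adjusted p = 1.71e-06), and Ifit1, a cap-binding RNA sensor, 1.54 (SE 0.21, adjusted p = 6.73e-06). For the difference between the datasets, 12 of the 83 had a larger effect in A (5.35% of features) and 0 a smaller one (2.53%).

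Dataset C has 1 library per group and so no replicate check. Its columns are marked only as treatment and control, read here as palmitate and mock. Among 26 members with a mean of at least 10 counts, the median log2 ratio of WT to RM per total count was -2.28 in mock and -2.46 with palmitate, next to -2.37 and -2.28 for 12306 features. All 26 ratios were negative in each, and the smallest in size in mock were Cxcl10 at -0.33, Oasl2 at -0.56 and Dtx3l at -0.76. The largest in size in mock was Rnf213 at -4.37, with 122 counts in mock WT and 3452 in mock RM. With palmitate the ratios were -1.32 for Cxcl10, -2.05 for Oasl2, -2.40 for Dtx3l and -3.36 for Rnf213. The mock WT library held 9 counts of Cxcl10 and 11 of Oasl2. Dtx3l counts were 65 for mock WT, 20 for WT with palmitate, 150 for mock RM and 166 for RM with palmitate. Counts of this dataset are given by strand, and 99.6% of the members' reads (19653 of 19725) lay on the strand of the gene, against 99.3% over all features.

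The authors' deposited table compares palmitate with mock only. Past the score of 13.01, read here as a false discovery rate of 0.05, the authors' deposited table holds Irf1, Dtx3l, Xaf1 and B2m in WT of dataset B, with log2 ratios of -0.39, -0.50, -0.41 and -0.54, where 6.51% of features pass. In RM of dataset A it holds Ifih1 at -1.98 (0.255% of features), and no member passes in the other comparisons of the authors' deposited table (0.599% in WT of dataset A and 1.92% in RM of dataset B).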

How the data were processed

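RNA precipitated with PKR was measured in 28 libraries. Per the submitters' processing notes, base calling used CASAVA 1.7.0 and 1.8.2, alignment used Novoalign, and the build was mm9, whose positions are given counted from 1. Not given in the sources used here were how features were counted and whether strand was used in datasets A and B. The authors' tables, as deposited, hold raw counts of each library by feature, in dataset C split by strand, whose sum was used. The authors also deposited log2 ratios with a score for the false discovery rate, taken as 10 times its negative log10. Analysis used 32 columns of counts, and 52 further per-sample columns were left out.

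The 38 genes, the pathway list and the naming rule were chosen with earlier results of these data known. Every member called on average between genotypes or in a palmitate comparison is named with its CPM in each library, and Rnf213 as the most abundant. Features with enough counts (filterByExpr) were tested with edgeR 4.0.16 in R 4.3.3: TMM scaling, robust quasi-likelihood fit, 12 libraries and 4 group means for a dataset, 24 libraries and 8 group means jointly. SE is the size of the log2 fold change divided by the square root of F. Biological replicates are the labels' words. If some share a culture, p-values cover only the spread between these libraries. Biological coefficients of variation were 0.220 in A, 0.191 in B and 0.203 jointly. Dataset C ratios are of counts plus 1, per total count. Alternatives were DESeq2 1.42.0, DESeq2 size factors, total counts, no filter, a replicate block and leaving out libraries. The scripts were tested on simulated data. Single values of some listed genes are not reported here.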

Additional observations from a re-analysis of the deposited data

Results flagged for a closer look

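These effects of WT against RM, averaged over treatments, differed between datasets A and B by a test of the difference itself in the joint edgeR fit, with adjusted p under the threshold. All were larger in dataset A. Among the members the difference on the log2 scale was 2.19 for Oasl2, 1.84 for Bst2, 1.74 for Dtx3l, 0.90 for Parp14, 0.89 for Gbp3 and 0.73 for Stat2. Bst2 and Dtx3l kept the call under all 30 alternatives. With total counts, which moved the median of all features to -0.48, Stat2, Parp14 and Gbp3 lost it. Gbp3 also lost it without RM palmitate replicate 3 of dataset A, and Oasl2 without RM palmitate replicate 1 of dataset B. Among the other pathway genes named by the rule the difference was 3.28 for Tapbp, 1.63 for Ifit1, 1.56 for Jak1, 1.23 for Irgm2, 0.80 for Irgm1 and 0.69 for Parp12. The genes Irgm1 and Irgm2 encode immunity-related GTPases, and Parp12 a mono-ADP-ribosyltransferase. The datasets also differ in the mark 2hr and in their range of depth, and the part of either in these differences cannot be told apart. Median total counts were alike, at 5.11e+06 in A and 5.59e+06 in B. Depth differed between genotypes in mock cells of A, with 3552968 to 4277434 counts in WT and 5025829 to 8036622 in RM. It also did with palmitate in B, with 3543807 to 5801911 in WT and 2204502 to 3490435 in RM. In RM of B it differed between treatments, with 3830243 to 7122087 counts in mock and 2204502 to 3490435 with palmitate. In the other pairs of groups compared within a dataset it overlapped.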

How the results depend on the processing

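No called gene changed direction under any alternative. Of 1145 gene results under alternatives 994 stayed on their side of the threshold and 151 lost the call. Counts of members called that moved by over 1.5 times were these. With DESeq2, the mock genotype effect of dataset A gave 4 instead of 8 and the interaction in B 1 instead of 0. With total counts, the genotype effect of A gave 2 in mock and 2 with palmitate, that of B with palmitate 2, those of A and B in the joint fit 7 and 2 instead of 13 and 4, the palmitate effect of B 3 in WT and 10 in RM, the averaged genotype effect 8, and the difference between datasets 3. Total counts also moved the median of all features, to -0.38 for the palmitate effect in RM of B and -0.48 for the difference between datasets. Without a filter on low counts, the genotype effect of A with palmitate gave 9, the palmitate effect in RM of A 1 and the interaction in B 1. Leaving out RM palmitate replicates 2 and 3 of B together gave 0 for the palmitate effect in RM, and leaving out all libraries that stand apart gave 2 for the genotype effect of B in the joint fit. Leaving out one library at a time gave 2 to 6 for the genotype effect of A in mock and 2 to 7 with palmitate. In B it gave 0 to 4 for the genotype effect with palmitate, 1 to 7 for the palmitate effect in RM, 0 to 4 for the interaction and 1 to 4 for the genotype effect in the joint fit, and the cause was not tested.

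The labels do not say whether equal replicate numbers mark paired libraries. Correlations of same-numbered deviations reached from -0.22 to 0.32 in A. Of the libraries 6 of 12 in A and 5 of 12 in B correlated best with their own number. With 3 numbers some such matches arise without pairing, so these values do not decide it. With a replicate block the genotype counts of dataset A were 8 and 3 and the averaged count 13. The block ended 2 gene calls, Usp18 with palmitate in A (adjusted p = 0.0588) and the averaged palmitate effect on Lgals3bp (adjusted p = 0.0601).

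Depth limits the 7 untested genes and Cxcl10, Irf7, Usp18 and Psmb8, which rest on few counts. In RM palmitate replicate 2 of A, with 254762 counts, a member at 0 is not shown to be absent.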
